A study of Mus musculus with 11 samples.

Results

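The genes described here are 10 heat-shock proteins and co-chaperones, read in every library of a comparison of APC-mutant with wildtype mouse pituitary cells. They were chosen by symbol, with earlier results of these data known. All 10 were found among the 56941 genes of the deposited count table: Hspa1a, Hspa1b, Hspa8, Hsph1, Bag3, Dnajb1, Hsp90aa1, Hspb1, Hspd1 and Hspe1. Messenger RNA of cells isolated by fluorescence-activated sorting was amplified and sequenced in bulk. The APC-mutant group held 5 libraries, replicates 1, 2, 4, 5 and 6, whose titles also carry the word Lef1, which the labels leave unexplained. The wildtype group held 6 libraries, of which replicates 1 to 4 carry the name ROSAJC and replicates 5 and 6 the name ROSAE. The labels give no strain, age, sex, allele, Cre driver or sorting gate, nor do they say whether each library is a separate animal, so the spread on which the p-values rest is that among libraries and could in part be technical. The mutant and wildtype libraries carry different name prefixes, and any difference in handling between the prefixes cannot be told apart from genotype.

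Heat-shock proteins are chaperones that bind unfolded or partly folded proteins. HSP70 proteins hold and release their clients in a cycle of ATP hydrolysis, which J-domain proteins such as Dnajb1 start and nucleotide exchange factors such as Bag3 and Hsph1 end. HSP90 finishes the folding of kinases and receptors, small heat-shock proteins such as Hspb1 hold clients without using ATP, and Hspd1 with Hspe1 forms the folding chamber of the mitochondrial matrix. When unfolded proteins accumulate, heat-shock factor 1 (HSF1) binds heat-shock elements, alternating repeats of the letters GAA and TTC, near the start of many of these genes. Enzymatic dissociation and sorting of tissue are known to raise the messages of inducible heat-shock genes together with those of immediate early genes.

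Of the 10 genes, 6 were higher in APC-mutant than in wildtype cells and none was lower. The small heat-shock protein Hspb1 rose most, followed by the inducible HSP70 genes Hspa1b and Hspa1a, the HSP70 partners Bag3 and Dnajb1, and, by a small step, the constitutive HSP70 gene Hspa8. Hsph1, Hsp90aa1, Hspd1 and Hspe1 did not pass the test. All 10 entered the fit of 20622 genes with edgeR's quasi-likelihood test, in which genes counted as called had a p under 0.05 after Benjamini-Hochberg adjustment. The genotypes differed widely: 12218 genes, or 59.2%, were called, 6341 higher (30.7%) and 5877 lower (28.5%). The members' 6 calls of 10 are close to the background share of all calls, and all 6 were in 1 direction. None of the 10 was lower at an unadjusted p under 0.05 either, with edgeR, DESeq2 or limma-voom. The median log2 fold change, mutant minus wildtype, was 0.90 over the 10 and 0.02 over all tested genes. The levels of the 6 called genes did not overlap between genotypes in any library, as was the case for 43.0% of all tested genes, and those of the other 4 overlapped.

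Upstream sequences holding the letters of heat-shock elements are shown first for the 3 genes that rose most and for the mitochondrial gene Hspe1, which did not pass the test. They are the 250 bases before the annotated start, from RefSeq on GRCm38.p6, 5′ to 3′ on the gene's strand. They lie at chr17:34972157-34972406 on the minus strand for Hspa1a, chr17:34959239-34959488 on the minus strand for Hspa1b, chr5:135887669-135887918 on the plus strand for Hspb1 and chr1:55087898-55088147 on the plus strand for Hspe1. Capitals mark bases that fall in a match to GAANNTTC or TTCNNGAA, that is, 2 facing units of the element, each pattern being its own reverse complement so that both strands are covered.
Hspa1a: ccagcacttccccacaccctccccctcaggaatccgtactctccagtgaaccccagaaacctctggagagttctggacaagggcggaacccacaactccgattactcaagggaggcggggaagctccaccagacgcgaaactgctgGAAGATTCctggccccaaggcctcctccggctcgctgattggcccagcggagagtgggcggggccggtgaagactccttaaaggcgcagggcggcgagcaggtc
Hspa1b: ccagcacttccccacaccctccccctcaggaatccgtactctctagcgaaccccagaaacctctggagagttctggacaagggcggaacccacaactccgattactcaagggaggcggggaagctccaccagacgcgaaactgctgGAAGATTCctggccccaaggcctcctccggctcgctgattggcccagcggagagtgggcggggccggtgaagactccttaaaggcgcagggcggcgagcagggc
Hspb1: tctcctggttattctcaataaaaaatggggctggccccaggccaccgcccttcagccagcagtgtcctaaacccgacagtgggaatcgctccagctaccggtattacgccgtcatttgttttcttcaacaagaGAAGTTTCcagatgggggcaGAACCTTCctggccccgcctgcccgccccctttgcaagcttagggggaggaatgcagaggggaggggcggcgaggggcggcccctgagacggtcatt
Hspe1: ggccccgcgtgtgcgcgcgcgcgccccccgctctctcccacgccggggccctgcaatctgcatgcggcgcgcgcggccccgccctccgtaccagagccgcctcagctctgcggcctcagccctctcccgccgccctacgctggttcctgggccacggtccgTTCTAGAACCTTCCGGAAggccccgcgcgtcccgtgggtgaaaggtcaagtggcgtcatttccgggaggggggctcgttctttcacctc

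The Hspa1a and Hspa1b windows were identical at 247 of 250 positions, with a longest identical run of 201 bases, and each held 1 match, GAAGATTC, starting 104 bases before the start. The Hspb1 window held 2 matches, starting 117 and 97 bases before the start. The Hspe1 window held 3 overlapping matches that form an unbroken alternation of GAA and TTC, and the same bases lie in the window of Hspd1, which is transcribed in the opposite direction from the other side. RefSeq windows were found for 8 of the 10 genes, with Hspa8 and Hsp90aa1 having no entry. Over windows that also take in the first 50 transcribed bases, 7 of the 8 held a 2-unit match, against 16.97% of 27025 symbols, and Hspd1, Hspe1 and Hsph1 held a match to the 3-unit pattern, GAANNTTCNNGAA or TTCNNGAANNTTC, against 0.662%. The matches in Bag3 and the 3-unit match in Hsph1 lay after the start, and Dnajb1 had no match. Of the genes with a 2-unit match, Hspa1a, Hspa1b, Hspb1 and Bag3 were called higher between genotypes, and Hspd1, Hspe1 and Hsph1 were not called. These last 3 are also the genes with a 3-unit match, and Dnajb1, without a match, was called higher. The 3-unit matches of Hspd1 and Hspe1 are the same bases, and only exact letters were sought. Whether matches go with the genotype difference was not tested. A match describes letters in this window and does not show binding.

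Hspa1a and Hspa1b encode the same stress-inducible cytosolic HSP70 protein, or nearly so, and lie side by side on chromosome 17, Hspa1a at 35188166 to 35191132 and Hspa1b at 35175412 to 35178214 on GRCm39, both on the minus strand. In the mutant libraries, in the order of replicates 1, 2, 4, 5 and 6, the normalised level of Hspa1a was 931, 481, 807, 552 and 619.7 CPM (read pairs of the gene in relation to all counted ones, scaled with the trimmed mean of M-values). The 6 wildtype libraries, replicates 1 to 6 in order, gave 46.2, 15.7, 96.7, 86.5, 70.5 and 198 CPM. Every mutant library lay above every wildtype library, and the lowest mutant level was 2.43 times the highest wildtype level. The means were 678 ± 186 (SD, n = 5) and 85.6 ± 62.3 CPM (SD, n = 6), a log2 fold change of 2.99 ± 0.46 (SE; edgeR adjusted p = 6.19e-05). Wildtype libraries differed far more among themselves than mutant libraries did, by 12.6-fold from lowest to highest against 1.93-fold.

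Hspa1b gave the same picture. Its levels were 1005, 553, 845, 573 and 736 CPM in the mutant libraries and 44.5, 10.2, 87.9, 85.9, 89.0 and 241 CPM in the wildtype libraries. The genotypes stood clear of each other, with wildtype replicate 2 at the bottom and wildtype replicate 6 well above the other wildtype libraries. The log2 fold change was 2.997 ± 0.53 (SE; edgeR adjusted p = 0.000236), from means of 742 ± 190 (SD, n = 5) and 93.0 ± 78.9 CPM (SD, n = 6). The size depended on which wildtype libraries were taken: against the ROSAE libraries alone it was 2.34 for Hspa1a and 2.18 for Hspa1b, and against the ROSAJC libraries alone 3.43 and 3.67, with every one of these passing the test.

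The pair shares much of its sequence, which limits how far each can be read alone. Of all 150-base stretches of the Hspa1a transcript, 38.1% also occur in Hspa1b, and read pairs that map to several places were not counted, so both levels leave out fragments. Counting also ignored strand, and 19.0% of the exonic bases of Hspa1a are overlapped by the predicted gene Gm20481 on the opposite strand. The ratio of Hspa1a to Hspa1b per kilobase of exon stayed between 0.796 and 0.911 in the mutant libraries and ranged from 0.748 to 1.46 in the wildtype libraries.

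**Figure D1:**
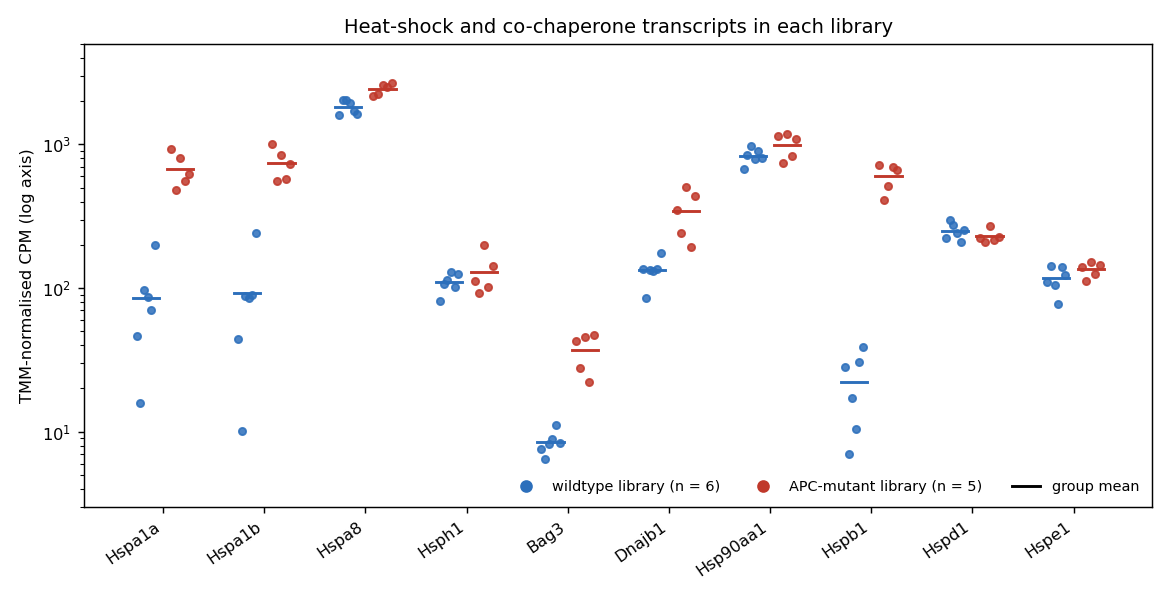
Normalised level (CPM, log axis) of each of the 10 genes in every library, with 1 point per library, in red for APC-mutant (5) and blue for wildtype (6), and bars at the genotype means. The genotypes stand apart for Hspa1a, Hspa1b, Hspb1, Bag3, Dnajb1 and Hspa8 and overlap for Hsph1, Hsp90aa1, Hspd1 and Hspe1.

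Hspa8, on chromosome 9 (40712280 to 40721383, plus strand), encodes the constitutive cytosolic HSP70, abundant in unstressed cells. It was read at 2179.8, 2242, 2589.5, 2507 and 2678 CPM in the mutant libraries. In the wildtype libraries it was read at 1598, 2029, 2049, 1944, 1702.5 and 1635 CPM. The genotypes did not overlap, but the lowest mutant and the highest wildtype library lay close together. With a log2 fold change of 0.42 ± 0.11 (SE; edgeR adjusted p = 0.00449), Hspa8 made the smallest move of the 6 called genes, from 1826 ± 204 (SD, n = 6) to 2439 ± 218 CPM (SD, n = 5). The balance between inducible and constitutive HSP70 messages differed between genotypes. Per kilobase of the exons counted for each gene, Hspa1a and Hspa1b together reached 1.33, 0.690, 0.953, 0.670 and 0.757 times the Hspa8 level in the mutant libraries, and 0.0846, 0.0189, 0.134, 0.132, 0.140 and 0.401 times in the wildtype libraries. All 5 mutant ratios lay above that of wildtype replicate 6, the highest of the wildtype libraries. Whether the pair exceeded Hspa8 in mutant replicate 1 depended on the length used, because the exons counted for Hspa8 span 4301 bases and its longest coding transcript 2394. Per transcript length, an alternative chosen after the data were seen, the ratio was 0.738 in that library, 0.373 to 0.738 over the mutant libraries and 0.0105 to 0.223 over the wildtype libraries. Of all 150-base stretches of the Hspa8 transcript, 55.99% also occur in other annotated genes, so its level too leaves out fragments.

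Among the partners of HSP70, Bag3 and Dnajb1 rose and Hsph1 did not pass the test. Bag3 joins HSP70 to small heat-shock proteins and to selective autophagy, and lies on chromosome 7 (128125340 to 128148705, plus strand). Mutant libraries held 43.0, 27.8, 45.3, 22.1 and 46.8 CPM and wildtype libraries 7.52, 6.48, 8.18, 8.89, 11.1 and 8.37 CPM. The wildtype libraries were close together, and the mutant libraries fell into a higher set of replicates 1, 4 and 6 and a lower set of replicates 2 and 5. The log2 fold change was 2.14 ± 0.21 (SE; edgeR adjusted p = 8.78e-07), from 8.42 ± 1.55 (SD, n = 6) to 37.0 ± 11.3 CPM (SD, n = 5).

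Dnajb1, the stress-inducible J-domain protein that hands clients to HSP70, lies on chromosome 8 (84334822 to 84339282, plus strand). Its levels were 349, 243, 508, 192 and 438 CPM in the mutant libraries and 135, 85.7, 134, 131, 135 and 175 CPM in the wildtype libraries. The same mutant replicates, 2 and 5, were the lowest, and replicate 5 exceeded the highest wildtype library only narrowly. Dnajb1 rose by 1.38 ± 0.23 on the log2 scale (SE; edgeR adjusted p = 0.000149), from 133 ± 28.3 (SD, n = 6) to 346 ± 131 CPM (SD, n = 5). Neither Bag3 nor Dnajb1 shares a 150-base stretch with another annotated gene.

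Hsph1, a large HSP110 protein that acts as an exchange factor for HSP70, lies on chromosome 5 (149537752 to 149559841, minus strand) and did not pass the test. It was read at 112, 92.3, 199, 101 and 142 CPM in mutant cells and at 81.2, 106, 115, 129, 102 and 125 CPM in wildtype cells. Mutant replicates 4 and 6 lay above the wildtype range and the other 3 within it. The log2 fold change was 0.24 ± 0.19 (SE; edgeR adjusted p = 0.297), from means of 129 ± 43.2 (SD, n = 5) and 109.8 ± 17.5 CPM (SD, n = 6).

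Hsp90aa1 encodes the inducible cytosolic HSP90 and lies on chromosome 12 (110657039 to 110669162, minus strand). Its levels were 1137, 739, 1172, 824 and 1088 CPM in the mutant libraries and 669, 839, 981, 795, 899 and 802 CPM in the wildtype libraries. Mutant replicates 1, 4 and 6 were above every wildtype library, while replicates 2 and 5 lay inside the wildtype range. The log2 fold change was 0.26 ± 0.14 (SE; edgeR adjusted p = 0.137), from means of 992 ± 197 (SD, n = 5) and 831 ± 106 CPM (SD, n = 6). Of the 150-base stretches of its transcript, 36.17% also occur in other annotated genes. The call turned on mutant replicate 2, without which the log2 fold change was 0.35 (edgeR adjusted p = 0.0434).

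Hspb1, the small heat-shock protein also known as HSP25 in mouse, binds unfolding proteins and actin filaments and lies on chromosome 5 (135916773 to 135918417, plus strand). It was read at 716.5, 409, 513, 696.5 and 661 CPM in the mutant libraries. In the wildtype libraries it was read at 28.2, 7.04, 17.3, 10.4, 30.8 and 38.7 CPM. The lowest mutant library was at 10.6 times the highest wildtype library. Hspb1 rose by 4.76 ± 0.40 on the log2 scale (SE; edgeR adjusted p = 1.63e-07), from 22.1 ± 12.5 (SD, n = 6) to 599 ± 133 CPM (SD, n = 5), a change above that of 96.8% of all tested genes. For comparison, the changes of Hspa1a and Hspa1b exceeded those of 92.6% of tested genes, that of Bag3 89.5%, that of Dnajb1 84.4% and that of Hspa8 66.6%. The log2 fold change of Hspb1 was 4.11 against the ROSAE libraries alone and 5.22 against the ROSAJC libraries alone. Of the 150-base stretches of its transcript, 36.62% also occur in 2 other annotated genes.

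Hspd1 and Hspe1 encode HSP60 and HSP10, the barrel and the lid of the mitochondrial chaperonin. They lie head to head on chromosome 1, Hspd1 at 55116994 to 55127402 on the minus strand and Hspe1 at 55127291 to 55130466 on the plus strand, with 4.24% and 7.60% of their exonic bases overlapping each other. Hspd1 was read at 223, 208, 272, 215 and 227 CPM in mutant cells and at 225, 299.9, 273, 242, 209 and 255 CPM in wildtype cells. Hspe1 was read at 141, 112, 151, 126 and 145 CPM and at 111, 143, 106, 77.8, 139 and 124 CPM. The genotypes overlapped for both genes. The log2 fold change was -0.13 ± 0.11 (SE; edgeR adjusted p = 0.342) for Hspd1 and 0.21 ± 0.15 (SE; edgeR adjusted p = 0.235) for Hspe1. The ratio of Hspd1 to Hspe1 per kilobase of counted exon was 0.875 to 1.03 in the mutant libraries and 0.836 to 1.73 in the wildtype libraries, and per transcript length 0.501 to 0.591 and 0.478 to 0.993. Of the 150-base stretches of their transcripts, 18.56% for Hspd1 and 14.08% for Hspe1 also occur in another annotated gene.

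**Figure D2:**
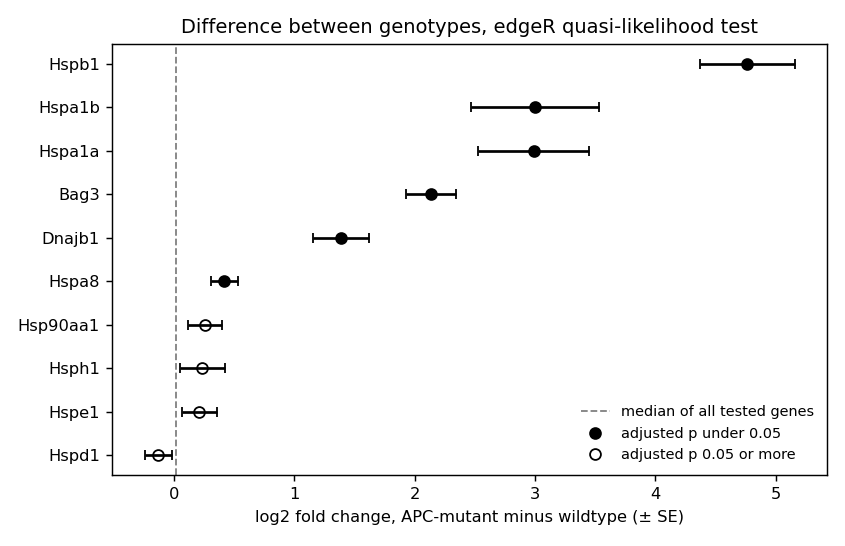
Log2 fold change (APC-mutant minus wildtype) of the 10 genes with its standard error, filled where the Benjamini-Hochberg adjusted p was under 0.05, 5 against 6 libraries. Changes run from 4.76 for Hspb1 to -0.13 for Hspd1, and the dashed line is the median of all tested genes, 0.02.

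Levels were set against each other per kilobase of the exons counted for each gene, a union over transcripts that is longer than any single transcript for some genes. In wildtype cells Hspa8 led at 425 ± 47.5 CPM per kilobase (SD, n = 6), followed by Hsp90aa1 at 211 ± 26.9. Hspd1 at 94.8 ± 12.5 and Hspe1 at 79.2 ± 16.3 came next and overlapped within their spread. Then followed Dnajb1 at 41.4 ± 8.85, Hspa1b at 33.2 ± 28.1, Hspa1a at 28.8 ± 21.0 and Hspb1 at 21.4 ± 12.1, whose ranges also overlapped, Hsph1 at 15.1 ± 2.41 and Bag3 at 3.29 ± 0.605 CPM per kilobase. In mutant cells Hspb1, eighth in wildtype, stood at 581 ± 129 CPM per kilobase (SD, n = 5), beside Hspa8 at 567 ± 50.7. Hspa1b at 265 ± 67.7, Hsp90aa1 at 252 ± 50.1 and Hspa1a at 229 ± 62.7 formed the next set and did not differ beyond their spread. Dnajb1 at 108 ± 41.0, Hspe1 at 91.6 ± 10.6 and Hspd1 at 86.7 ± 9.48 followed, with Hsph1 at 17.8 ± 5.95 and Bag3 at 14.4 ± 4.39 CPM per kilobase again last. Several places in this order depended on the length. Per kilobase of the longest coding transcript, Hspa8 led in both genotypes, at 1019 ± 91.1 (SD, n = 5) in mutant and 763 ± 85.3 CPM per kilobase (SD, n = 6) in wildtype cells. On that scale Hspb1 stood at 644 ± 143 in mutant cells, second, and at 23.7 ± 13.4 in wildtype cells, ninth. Hspe1 moved up, to 174 ± 20.2 in mutant cells, above Dnajb1 at 115 ± 43.9, and to 151 ± 31.1 in wildtype cells, above Hspd1 at 103 ± 13.6. In wildtype cells Hsph1, at 28.9 ± 4.601, was level with Hspa1a. The 10 genes together held 0.496% to 0.710% of all counts in the mutant libraries and 0.301% to 0.373% in the wildtype libraries, and of this the pair Hspa1a and Hspa1b held 0.101% to 0.190% and 0.00269% to 0.0454%.

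**Figure D3:**
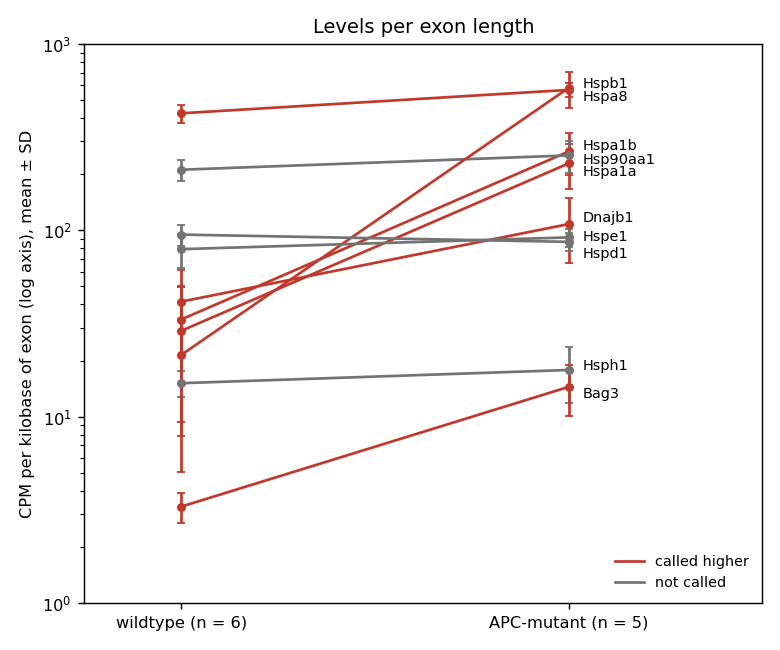
Level of each gene per kilobase of its counted exons (CPM per kilobase, log axis), mean and SD over 5 APC-mutant and 6 wildtype libraries. Hspa8 is high in both genotypes, and Hspb1 moves from 21.4 in wildtype to 581 in mutant cells.

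Within each genotype, certain libraries were high or low for several of the genes. Mutant replicate 2 was the lowest mutant library for 7 of the 10 genes, all but Hspa8, Bag3 and Dnajb1, and replicate 4 the highest for 5: Hsph1, Dnajb1, Hsp90aa1, Hspd1 and Hspe1. Mutant replicate 1 was highest for Hspa1a, Hspa1b and Hspb1. Among the wildtype libraries, replicate 2 was lowest for Hspa1a, Hspa1b, Bag3, Dnajb1 and Hspb1 and at the same time highest for Hspd1 and Hspe1. Wildtype replicate 6 was highest for Hspa1a, Hspa1b, Dnajb1 and Hspb1. The range within a genotype, highest over lowest library, was smallest for Hspa8 in both, 1.23 in the mutant and 1.28 in the wildtype libraries, and largest for Dnajb1 in the mutant libraries, 2.65. In the wildtype libraries it was 5.50 for Hspb1, 12.6 for Hspa1a and 23.6 for Hspa1b.

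Immediate early genes, which are transcribed within minutes of a stimulus and also respond to cell handling, varied over the same libraries. Their summed level was 11648, 11452, 12356, 5277 and 12817 CPM in the mutant libraries and 9104, 2205, 9339, 6990, 8348 and 10339 CPM in the wildtype libraries. Wildtype replicate 2 was the lowest wildtype library here and wildtype replicate 6 the highest, as for Hspa1a, Hspa1b, Dnajb1 and Hspb1. For the inducible Hsp90aa1, wildtype replicate 1 was lowest and replicate 3 highest. The sums of mutant replicates 1, 2, 4 and 6 lay above every wildtype sum. Mutant replicate 5 had an immediate early sum below 5 of the 6 wildtype libraries and read 552 CPM of Hspa1a and 696.5 CPM of Hspb1. It was also the lowest mutant library for Bag3, at 22.1 CPM, and for Dnajb1, at 192 CPM. With the log2 of the sum as a covariate, an alternative chosen after the data were seen, the same 6 genes stayed called. Their log2 fold changes were then 2.696 for Hspa1a, 2.696 for Hspa1b, 4.61 for Hspb1, 1.92 for Bag3, 1.09 for Dnajb1 and 0.47 for Hspa8. Without the covariate they were, in the same order, 2.99, 2.997, 4.76, 2.14, 1.38 and 0.42. The sum was higher in most mutant libraries and includes genes called between genotypes. This fit therefore cannot tell immediate early activity apart from genotype. Of 16 immediate early genes tested, 6 were higher and 1 lower, beside 30.7% and 28.5% of all tested genes, with a median log2 fold change of 0.60. Ier3, an early survival gene, changed by 4.18 and the transcription factor gene Klf4 by 2.61, while the antiproliferative gene Btg2 fell by 1.07 (edgeR adjusted p = 1.42e-06, 3.99e-05 and 0.00903). The part of cell handling in the heat-shock difference was not tested.

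**Figure D4:**
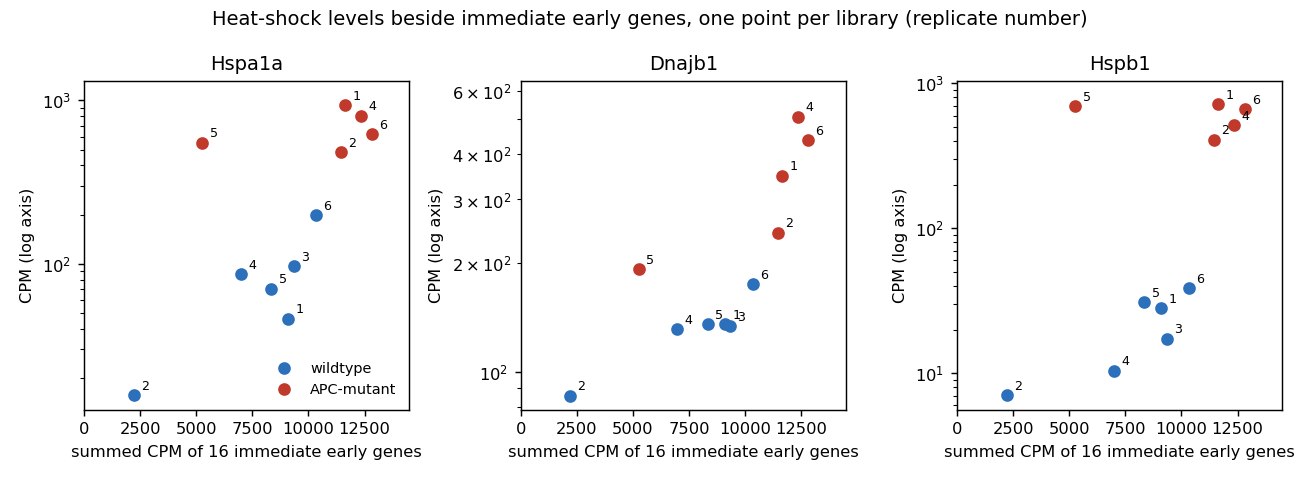
Levels of Hspa1a, Dnajb1 and Hspb1 (CPM, log axis) against the summed level of 16 immediate early genes (CPM) in each of the 11 libraries, labelled by replicate. Mutant replicate 5 has a sum of 5277 CPM, below 5 wildtype libraries, and the sums of mutant replicates 1, 2, 4 and 6 exceed every wildtype sum. All 5 mutant libraries lie above every wildtype library for the 3 genes.

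Markers of other cell types also moved with genotype. Summed endothelial markers were 3699 to 5483 CPM in the mutant and 10.6 to 78.2 CPM in the wildtype libraries, with 8 of 8 genes higher. Macrophage and leukocyte markers summed to 247 to 1573 and 17.8 to 48.5 CPM (8 of 8 higher), mesenchyme and pericyte markers to 752 to 3357 and 110 to 277 CPM (8 of 8 higher), and erythroid markers to 2072 to 3978 and 1.21 to 35.3 CPM (5 of 5 higher). Pituitary stem cell markers were 753 to 993 in the mutant and 1828 to 2699 CPM in the wildtype libraries (1 higher and 7 lower of 12). Epcam and Aldh1a2, the largest terms of this sum in wildtype cells, fell from means of 1044 and 587 CPM to 352 and 75.8 CPM. Sox2, at 35.4 CPM in wildtype and 38.0 CPM in mutant cells, and Sox9, at 58.3 and 93.9 CPM, were not called (edgeR adjusted p = 0.660 and 0.0543). Ret and Gfra3 were not called either, and Cdh1 was higher. Endocrine markers were 162 to 1460 in the mutant and 58636 to 93929 CPM in the wildtype libraries (10 of 10 lower). The wildtype cells, which the series' design text calls stem cells, therefore held stem cell and endocrine markers together. Posterior lobe and glial markers ranged from 47.7 to 89.4 CPM in the mutant and from 15.0 to 179 CPM in the wildtype libraries (1 higher and 0 lower of 6). The wildtype libraries differed: replicates 1 and 5 read 134 and 179 CPM, replicate 6 35.4 CPM and replicates 2 to 4 between 15.0 and 16.2 CPM. No marker was at 0 in all libraries of a genotype. In bulk libraries more cells of a type and more RNA per cell cannot be told apart, and the part of these cell types in the heat-shock difference was not tested. Apc itself, the gene of the genotype label, read 37.8 to 45.6 CPM in the mutant and 39.3 to 47.4 CPM in the wildtype libraries and changed by -0.03 ± 0.10 on the log2 scale (SE; edgeR adjusted p = 0.819), so its level does not check the label.

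Around the 10 genes, 11 lists of related genes, 115 in all and 108 tested, held 26 higher and 32 lower genes with a median log2 fold change of -0.04. Over all tested genes 30.7% were called higher and 28.5% lower, and the counts of every list are to be read beside these shares. Their values below are log2 fold changes of called genes unless a p is given. Of the heat-shock factors Hsf1 and Hsf2 and the HSF1-binding protein Hsbp1, the 3 tested genes of their list, none was called higher and 2 were lower. Hsf1, the main regulator of the response, read 58.8 CPM in mutant and 69.1 CPM in wildtype cells, a log2 fold change of -0.23 (edgeR adjusted p = 0.162), and was called lower, at -0.32 (edgeR adjusted p = 0.0306), only once wildtype replicate 2 was left out. Hsf2, a second factor, was lower at -0.55 (edgeR adjusted p = 0.0261), a call lost when mutant replicate 5 or 6, or wildtype replicate 6, was left out. Hsbp1, which binds HSF1 and restrains it, was lower at -0.27 (edgeR adjusted p = 0.0318), a call lost when mutant replicate 1, 2, 4 or 6, or wildtype replicate 1 or 2, was left out. Between 0 and 2 of these 3 genes were lower when single libraries were left out, with 0 without mutant replicate 6.

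Other HSP70 relatives went both ways, 4 higher and 3 lower of 8, with a median of 0.40. Hspa12b, a distant relative known from endothelium, changed by 2.97, from 2.46 to 19.3 CPM, beside the endothelial markers above. Hspa4l, a relative of Hsph1, fell by 2.81, from 129 to 18.4 CPM, the opposite direction to the inducible pair. Hspa12a at -0.57 and Hspa13 at -0.42 were also lower, both calls being lost against the ROSAE libraries alone.

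J-domain proteins other than Dnajb1 were 3 higher and 5 lower of 13. Dnajb4, the close relative of Dnajb1, was higher by 1.07, and Dnajb2, known from neurons, fell by 1.46. Dnaja1 at 0.38 and Dnajb14 at 0.41 were higher, both calls being lost without mutant replicate 4 or wildtype replicate 5, that of Dnaja1 also without mutant replicate 6 or wildtype replicate 1, and that of Dnajb14 also without mutant replicate 1. Leaving out single libraries moved the list's counts to between 1 and 5 higher, with 1 without mutant replicate 4 or wildtype replicate 5 and 5 without wildtype replicate 2, and to 3 lower without mutant replicate 1, 2, 4 or 6 or wildtype replicate 1, 3 or 4. Of 8 exchange factors and other HSP70 co-chaperones, none was called higher and 3 were lower, among them the ubiquitin ligase Stub1 at -0.68, of whose exonic bases 54.0% overlap another gene, and Bag4 at -0.55, with 14.8% overlap. The call of Bag4 was lost against the ROSAE libraries alone. Bag3 moved in the opposite direction to the 3 lower genes.

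Of 12 tested genes of HSP90 and its co-chaperones, 2 were higher and 3 lower. Hsp90ab1, the constitutive HSP90, was higher by 0.45, and the kinase co-chaperone Cdc37 by 0.36. Fkbp5, a co-chaperone induced by glucocorticoids, fell by 1.31, and Unc45a, a myosin chaperone with 26.5% overlap, by 0.86. The ratio of Hsp90aa1 to Hsp90ab1 per kilobase of counted exon was 0.260 to 0.365 in the mutant and 0.310 to 0.407 in the wildtype libraries, which overlap.

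The other small heat-shock proteins were 3 higher and 1 lower of 4 tested, with 4 more filtered out as too low. Hspb2, a muscle relative, was higher by 2.18, from 1.30 to 5.91 CPM, and 30.2% of its exonic bases overlap Cryab. Hspb6 fell by 1.23, from 38.4 to 16.3 CPM, the opposite direction to Hspb1. The lower count was 2 when any single mutant library was left out. That reflects a gene filtered out of the main fit being tested, and none of the 4 tested genes changed to lower. Of the filtered genes only Hspb3 was lower in mutant cells, at means of 0.0747 against 0.744 CPM. Its mutant libraries read 0 to 0.221 CPM, so it could pass a filter only through the wildtype libraries.

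The cytosolic chaperonin CCT, which folds actin and tubulin, had 2 higher and 2 lower of 8 subunits, with Cct4 higher by 0.90 and Cct2 lower at -0.24, the latter lost without mutant replicate 2 or 4. The lower count was 0 without either of those and 1 when mutant replicate 1 or 6, or one of wildtype replicates 1 to 4, was left out. The higher count was 1 when mutant replicate 5 or 6, or wildtype replicate 1, 4, 5 or 6, was left out. Of 9 other mitochondrial chaperones and proteases, 2 were higher and 2 lower, the lower ones being the matrix unfoldase gene Clpx at -0.52 and the matrix J-domain gene Dnaja3 at -0.51, with 4 lower without wildtype replicate 6. Genes of the endoplasmic reticulum and the unfolded protein response were 1 higher and 6 lower of 17, with a median of -0.22. Sdf2l1 fell by 1.08 and Manf by 0.68, both known as targets of that response, while its transcription factor gene Xbp1 was higher by 0.38. Among 10 other stress genes 3 were higher and 4 lower: the haem oxygenase gene Hmox1 changed by 2.76, Gadd45b by 1.70 and Txnrd1 by 0.82, and Srxn1, like the last a gene of the oxidative stress response, fell by 2.15.

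**Figure D5:**
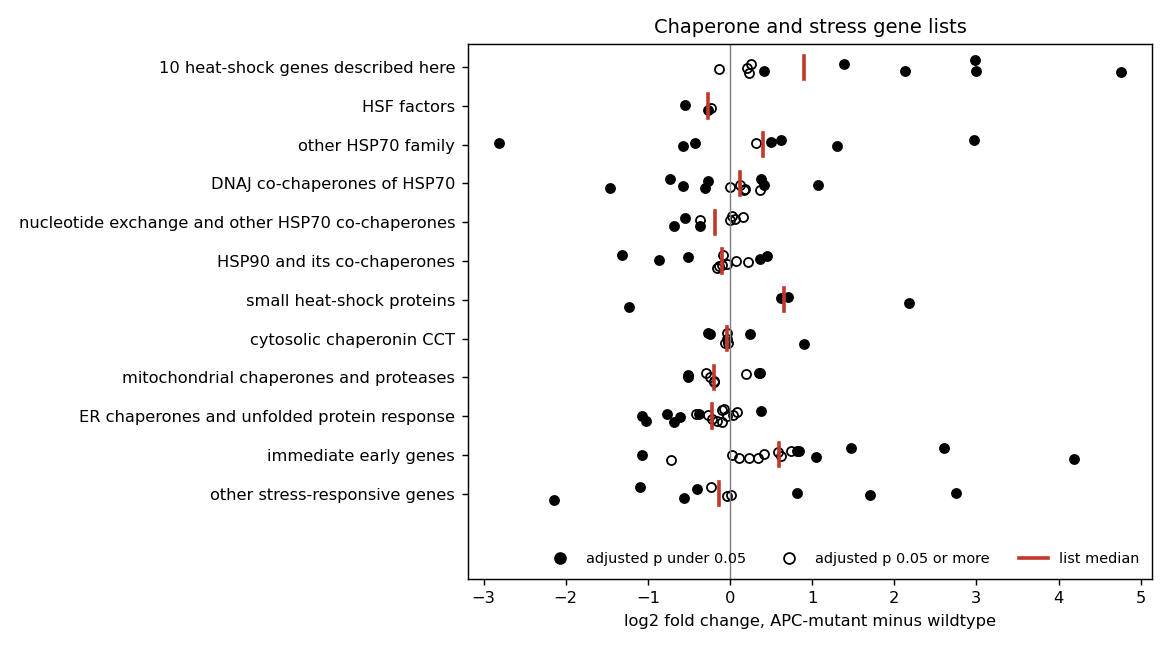
Log2 fold change (APC-mutant minus wildtype) of every tested gene in the 10 members and the 11 lists, 1 point per gene, filled where the adjusted p was under 0.05, and a bar at each list's median. The members' median is 0.90, the lists' medians lie between -0.27 and 0.66, and that of all tested genes is 0.02.

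Genes whose library-to-library pattern lay closest to that of Hspa1a were sought among the 13879 genes averaging 5 CPM or more. The measure was the root mean square difference of log2 levels, taken as deviations from the genotype means over 11 libraries, and Hspa1a's own deviations had a size of 0.851. The nearest was Gm20481, at 0.0463, which is the predicted gene overlapping Hspa1a on the other strand and counted without regard to strand, so that the same read pairs enter both. Hspa1b followed at 0.233. The predicted gene AC137853.2 at 0.368, Ncoa7, a nuclear receptor coactivator gene, at 0.408 and Klf5, a transcription factor gene, at 0.419 lay farther away.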

How the data were processed

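The authors deposited raw counts of fragments per gene for 11 libraries. The annotation was GENCODE M33 on GRCm39 and the counter featureCounts 2.0.1, both per the file headers. Trim Galore 0.6.5 and STAR 2.7.9a are named in the submitters' processing notes, with settings not given in the sources used here. The recorded options of featureCounts ignore strand, leave out pairs with several mapping places and add a pair to every gene it overlaps. Libraries held between 15740857 and 27280761 counts. A count of 0 allows up to 3 counts, or 0.110 to 0.191 CPM, which covers counting error only. Of the identifiers, 91.2% matched a symbol.

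Genes were filtered with filterByExpr, scaled by TMM and tested for genotype with edgeR 4.0.16 (quasi-likelihood F test, R 4.3.3, Benjamini-Hochberg adjustment over all tested genes, called under 0.05). Each standard error is the size of the log2 fold change over the root of its F statistic. Levels per kilobase use the deposited exonic lengths, with GENCODE M21's longest coding transcript as an alternative chosen after the data were seen. Alternatives were DESeq2 1.42.0 (its test and its size factors), limma-voom 3.58.1, library totals alone, other filters, each library left out, each wildtype name prefix alone, the replicate block and, chosen after the data were seen, 2 sets of 9 libraries and the immediate early covariate.

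The members and lists were chosen with earlier results of these data known. The text names the members, the 2 genes of each list with the smallest p, called genes against their list's majority, Hsf1, Hsf2, Apc and the 5 genes nearest to Hspa1a. Ddit3 was left out because 2 identifiers carry it. The header names 30 alignment files, of which 11 have a column. Spearman correlations between libraries were 0.957 to 0.986 within and 0.785 to 0.817 between genotypes. No libraries agreed within sampling noise. Promoter windows are RefSeq's on GRCm38.p6, and transcript stretches are those of GENCODE M21.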

Additional observations from a re-analysis of the deposited data

Results flagged for a closer look

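Hspa1b in wildtype replicate 6 stood apart from the other wildtype libraries. It read 241 CPM, against 89.0 CPM in the next highest, and this gap was 0.658 of the group's range, above the critical value of 0.625 for 6 libraries. Chance flags about 1 in 20 groups, and 20 groups were examined. The same library was the highest wildtype library for Hspa1a, Dnajb1 and Hspb1.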

How the results depend on the processing

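Over 23 alternatives the 10 genes gave 230 fold changes, of which 229 kept their direction and their side of the threshold and 1 passed it anew, Hsp90aa1 without mutant replicate 2. Hsp90aa1 ranged from 0.19 to 0.35 on the log2 scale when single libraries were left out. With single libraries left out, 6 or 7 members were called higher. Apc, near 0 throughout, ranged from -0.0802 to 0.0115 with single libraries left out. With the replicate block it was at 0.000257 on the log2 scale, and 6 members were called higher, as were 5695 of all genes, with 5016 lower. The replicate numbers did not pair the libraries: correlations of deviations between same-numbered libraries ran from -0.151 to 0.0492, and none of the 5 mutant libraries correlated best with its own number. With library totals alone in place of TMM, 5863 genes were higher and 6377 lower. Of 782 values of 34 other named genes, 735 kept their call and 42 lost it. A further 3, all of Hsf1, passed the test anew, and 2, both of Apc, changed sign. Dnaja1, Dnajb14, Cct2, Hsbp1 and Hsf2 were among the genes that lost their call. Bag4, Hspa12a and Hspa13 lost it against the ROSAE libraries alone, and Hspa12a also with the replicate block. At the depths read, what limits precision is the spread between libraries, above all for Hspa1a and Hspa1b in wildtype cells. Levels of Hspa1a, Hspa1b, Hspa8, Hsp90aa1, Hspb1 and, to a lesser share, Hspd1 and Hspe1 are limited by fragments that map to several places.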
